A study of Mus musculus with 8 samples.

Results

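Fatty acid beta-oxidation is described here through 31 genes, taken from a fixed list of enzymes and matched by symbol to the Ensembl identifiers of a table of 31053 genes. The list was chosen by name and not by level, with earlier results of these data known. By the place of the protein, 20 members belong to mitochondria (carnitine shuttle, dehydrogenases, hydratases, thiolases, electron transfer flavoprotein and 1 thioesterase), 5 to peroxisomes, 3 to both organelles, and 3 are acyl-CoA synthetases that activate fatty acids before they enter the pathway. The samples were visceral white adipose tissue (vWAT; the sample names say EWAT) of KIKO mice and their WT littermates, 4 mice of each genotype with 1 library per mouse. KIKO mice combine a knock-in and a knock-out allele and model Friedreich's ataxia. By the labels both groups had the C57BL/6 strain, and by the study's account of the sequencing they were males aged 8 months, and the labels give no treatment.

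In beta-oxidation a fatty acid is joined to coenzyme A, carried across the mitochondrial inner membrane as a carnitine ester, and shortened by repeated rounds of dehydrogenation, hydration, a further dehydrogenation and thiolysis. Electrons of the acyl-CoA dehydrogenases pass through the electron transfer flavoprotein to the respiratory chain, whereas peroxisomes oxidise very-long-chain and branched substrates with an oxidase. White adipocytes mainly store and release fatty acids and oxidise fewer of them than muscle, liver or brown fat.

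None of the 29 members that could be tested passed the threshold between KIKO and WT vWAT (adjusted p under 0.05, edgeR quasi-likelihood test with Benjamini-Hochberg adjustment over 11080 genes), where 75 of all tested genes (0.677%) passed. None passed in DESeq2, which gave an adjusted p for 28 members and none for *Acad10*, or in any of the limma fits. At an unadjusted p under 0.05 stood 4 members, *Acsl5*, *Acad10* and *Hsd17b4* with higher values in KIKO mice and *Acsl1* with lower values, against 16.2% of all tested genes. For 22 of the 29 members (75.9%) the whole 95% interval of the difference lay inside 1.5-fold either way, against 44% of all tested genes. The members also had higher levels and smaller SEs. Their median of mean CPM (counts scaled to the library's total) was 100, against 24.4 for all tested genes. Their median SE was 0.145 on the log2 scale, against 0.187. The tested genes were not matched to the members for level, so the part of level in this contrast was not tested. The median log2 fold change of the 29 was 0.11, with 20 members above 0 and 9 below, against a median of -0.01 and 49.0% above 0 over all tested genes. These counts describe the list and were not tested.

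**Figure D1:**
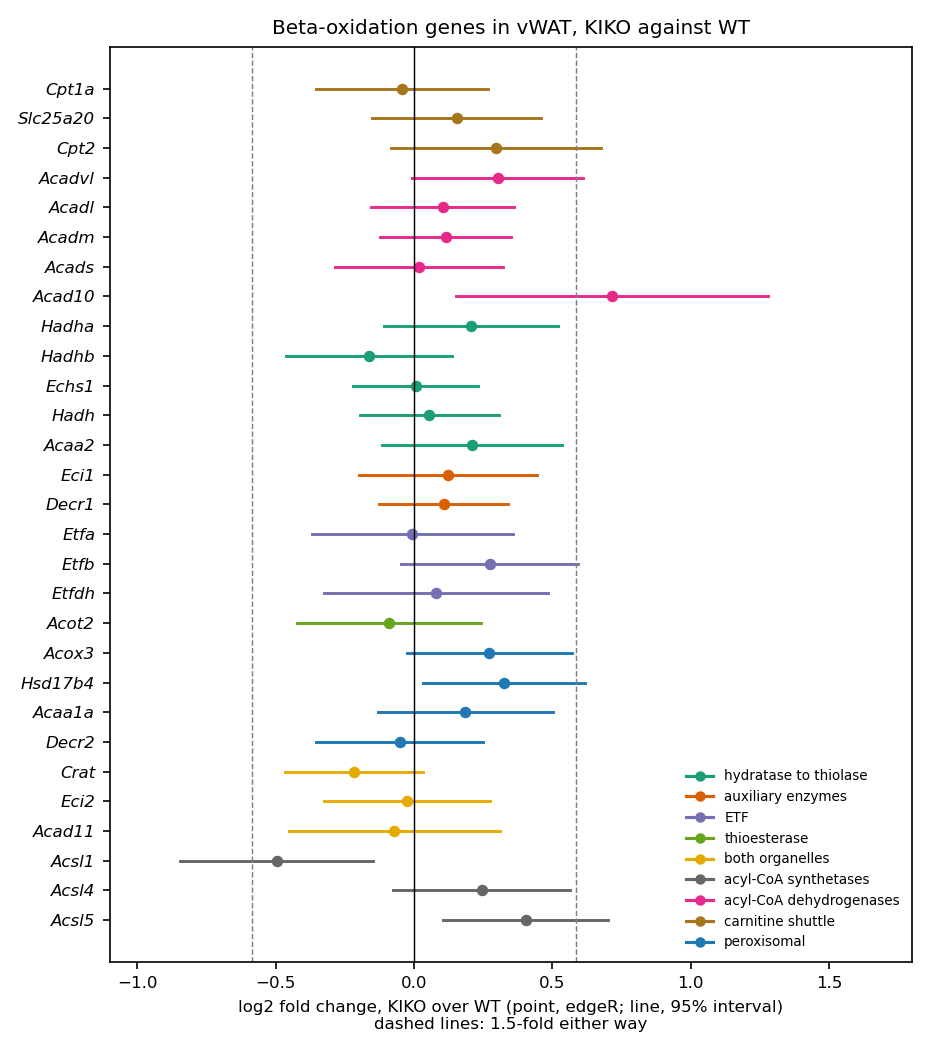
Log2 fold change of KIKO over WT for the 29 tested members, ordered by role (points, edgeR estimates; lines, 95% intervals; dashed lines, 1.5-fold either way). The intervals of *Acsl1*, *Acsl5*, *Acad10* and *Hsd17b4* leave out 0, none of these genes passed after adjustment, and 22 of the 29 intervals lie between the dashed lines.

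Libraries held 2602189 to 3478539 counts in KIKO mice and 2936515 to 3119146 in WT mice, with 14822 to 15389 genes detected. Levels are given as CPM, counts scaled to the library's total by edgeR with TMM factors. Adipocyte markers were high in every library, at a summed 48486 to 65687 CPM in KIKO and 37137 to 44162 CPM in WT mice. Of 9 markers 0 passed the threshold, and 2 (*Adipoq* and *Cfd*) had higher values in KIKO mice at an unadjusted p under 0.05, from edgeR. *Cfd* made the largest part of the sums, at a mean 29498 CPM in KIKO and 17978 CPM in WT mice. *Cidec* and *Retn* had log2 fold changes of -0.24 and -0.10, and the other adipocyte markers had estimates above 0. Over all tested genes 0.677% passed and 16.2% had an unadjusted p under 0.05. Macrophage markers summed to 1593 to 1862 CPM in KIKO and 1192 to 1477 CPM in WT mice (1 of 8 passed, *Lyz2*, higher; 4 higher at an unadjusted p under 0.05). Endothelial markers summed to 307 to 514 CPM in KIKO and 487 to 642 CPM in WT mice (1 of 5 passed, *Robo4*, lower; 2 lower at an unadjusted p under 0.05). Mesothelial markers summed to 223 to 451 CPM in KIKO and 218 to 315 CPM in WT mice (1 of 4 passed, *Krt19*, higher; 2 higher at an unadjusted p under 0.05), and their median log2 fold change of 0.52 was the largest of the marker lists. *Msln* had a log2 fold change of -0.18, and the other mesothelial markers had estimates above 0. The 7 brown and beige fat markers summed to 149, 54.8, 36.3 and 79.1 CPM in KIKO mice, against 31.4, 44.5, 47.2 and 42.9 CPM in WT mice, with *Cidea* the main part in KIKO mouse 1. Of 3 that could be tested 0 passed in edgeR and 1, *Cidea*, had a higher value at an unadjusted p under 0.05. *Cox7a1* and *Cox8b*, also tested, had log2 fold changes of -0.30 and 0.31. *Elovl3* had 18 counts in KIKO mouse 1 and at most 5 in any other library, *Ucp1* had 1 count in each KIKO library and 0 in each WT library, and *Zic1* was at 0 in all 8. In such tissue samples fewer cells of a type and less RNA per cell cannot be told apart, and the part of these shifts in the members' values was not tested.

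Windows from 250 bases before to 50 bases after the start site were taken from RefSeq (GRCm38.p6) for 26 of the 31 members, 27 windows in all. Those of the genes with the smallest p values, *Acsl1* (which has 2 start sites 19929 bases apart) and *Acsl5*, and that of *Hadhb* are shown, the last because *Hadha* and *Hadhb*, which encode the subunits of one protein complex, start head to head 273 bases apart on chromosome 5 and their windows share 228 bases. Capitals mark the GC box GGGCGG and the CCAAT box CCAAT on either strand; these windows hold neither AGGTCA nor GCGCATGC, which were searched too. All run 5′ to 3′ on the plus strand.
Acsl1, upstream start (chr8:46470787-46471086, +): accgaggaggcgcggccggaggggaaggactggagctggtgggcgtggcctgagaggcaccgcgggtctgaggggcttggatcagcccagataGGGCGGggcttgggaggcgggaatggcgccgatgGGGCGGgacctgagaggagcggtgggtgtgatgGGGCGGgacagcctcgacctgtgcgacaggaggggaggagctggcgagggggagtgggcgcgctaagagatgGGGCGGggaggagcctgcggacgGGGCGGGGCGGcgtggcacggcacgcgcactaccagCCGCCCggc
Acsl1, downstream start (chr8:46490716-46491015, +): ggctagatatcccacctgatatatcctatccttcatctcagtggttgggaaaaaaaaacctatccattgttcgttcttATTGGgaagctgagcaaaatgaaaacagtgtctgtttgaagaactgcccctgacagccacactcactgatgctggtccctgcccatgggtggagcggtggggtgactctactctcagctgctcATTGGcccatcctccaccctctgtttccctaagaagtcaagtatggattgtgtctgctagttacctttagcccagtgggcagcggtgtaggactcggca
Acsl5 (chr19:55253119-55253418, +): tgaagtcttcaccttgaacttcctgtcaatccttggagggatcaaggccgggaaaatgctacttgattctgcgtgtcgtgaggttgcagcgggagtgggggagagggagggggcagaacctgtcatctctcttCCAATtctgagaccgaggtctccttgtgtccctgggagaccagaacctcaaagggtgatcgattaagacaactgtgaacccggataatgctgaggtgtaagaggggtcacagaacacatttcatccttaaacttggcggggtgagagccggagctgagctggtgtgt
Hadhb (chr5:30155003-30155302, +): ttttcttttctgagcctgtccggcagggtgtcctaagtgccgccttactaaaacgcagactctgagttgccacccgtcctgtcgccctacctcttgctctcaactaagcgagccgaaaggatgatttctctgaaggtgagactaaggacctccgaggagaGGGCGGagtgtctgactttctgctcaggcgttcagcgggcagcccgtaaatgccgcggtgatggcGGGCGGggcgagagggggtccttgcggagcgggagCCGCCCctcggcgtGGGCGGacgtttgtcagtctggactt
The upstream *Acsl1* window holds 7 GC boxes and the downstream one 2 CCAAT boxes and no GC box. The *Acsl5* window holds 1 CCAAT box, and the *Hadhb* window 4 GC boxes. Counts here are per gene, so which *Acsl1* start site was in use was not measured.

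Across the 27 windows, GGGCGG stood in 20 (74.1%), against 35.7% of 32851 RefSeq windows of the same length. The 1 GC box of the *Hadha* window lies in the bases shared with *Hadhb*, so both windows count it. The RefSeq windows were not matched to the members for base composition. CCAAT stood in 12 (44.4%, against 37.4%), and TATAAA in 0 (against 13.6%). The nuclear receptor half-site AGGTCA stood in 4 (14.8%, against 16.3%), those of *Acadm*, *Acadvl*, *Cpt1a* and *Echs1*. A pair of AGGNCA half-sites with 1 base between them (DR1, the element of PPAR and RXR) and the ERR site TCAAGGTCA, which contains AGGTCA, stood in none, against 0.381% and 0.423%. The NRF1 core GCGCATGC stood in 4 windows (14.8%, against 2.71%), those of *Acad10*, *Acadm*, *Etfa* and *Etfdh*. Letters in a window are not evidence of binding.

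Divided by the length of the main transcript, members spanned from 588 CPM per kilobase for *Etfb* to 1.75 for *Acad10* and 0.605 for *Ehhadh* (means over all 8 mice). On this scale *Acsl1* followed *Etfb* at 264, then *Hadh* at 179, *Acads* at 153, *Acaa2* at 139, *Echs1* at 118, *Acadl* at 114 and *Acadm* at 105 CPM per kilobase. The carnitine shuttle had 24.6 for *Cpt2*, 21.6 for *Slc25a20* and 11.4 for *Cpt1a*. Spearman's rho of mean CPM with transcript length was -0.01 over 10834 tested protein-coding genes (a description across genes, which are not replicates), and the division would not apply to counts from 3′ ends. The order without it differed: *Acsl1* led at 1027 mean CPM, before *Etfb* at 525, *Hadh* at 321, *Acads* at 287, *Decr1* at 249 and *Hadha* at 247, while *Acad10* at 6.71 and *Ehhadh* at 1.8 stayed lowest of the detected members.

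**Figure D2:**
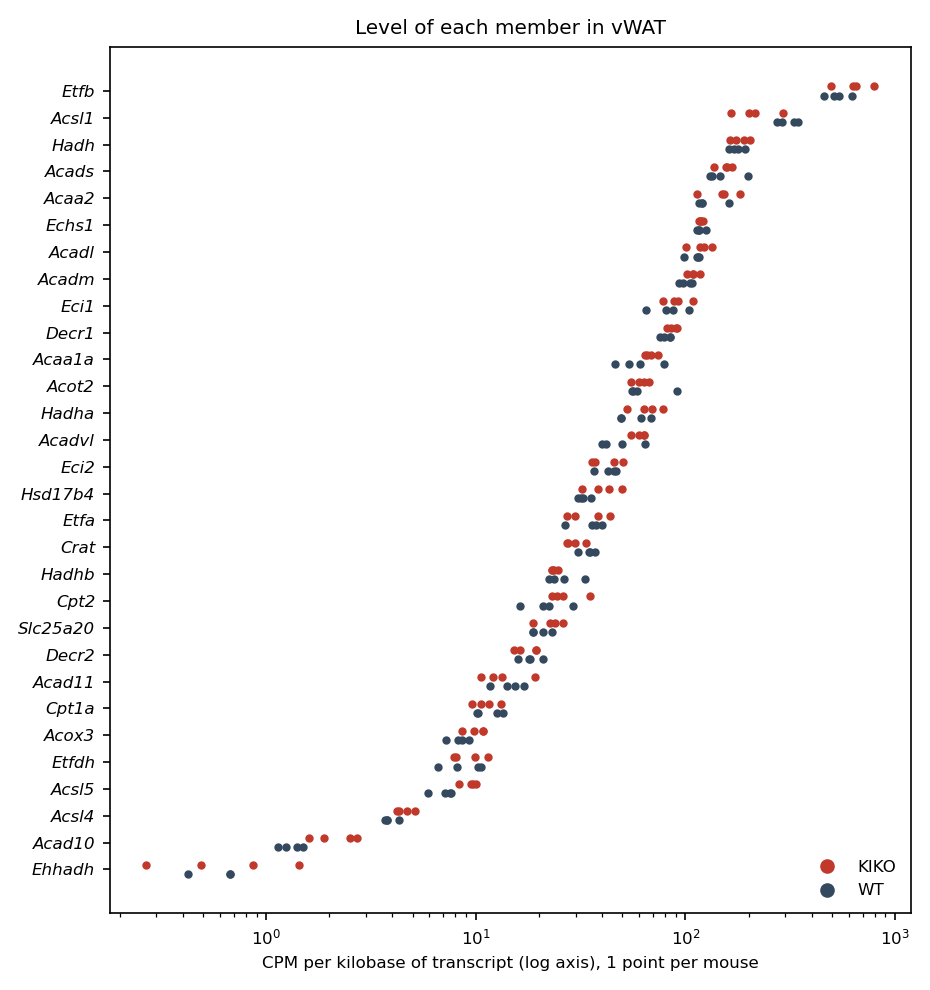
CPM per kilobase of transcript of each detected member, on a log axis, with 1 point per mouse (KIKO red, WT dark; mice at 0 are not drawn). Levels run from 588 for *Etfb* to 0.605 for *Ehhadh*, *Cpt1b* is not drawn because it had no count, and the KIKO and WT points interleave for most members.

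The carnitine shuttle takes long-chain fatty acids into mitochondria. *Cpt1a*, the liver-type form of its rate-limiting enzyme, had 41.6, 45.6, 57.0 and 50.1 CPM in KIKO mice 1 to 4, against 44.4, 43.9, 58.2 and 54.3 CPM in WT mice. The groups lay on top of each other, with a log2 fold change of -0.04 (95% interval -0.35 to 0.27, adjusted p = 0.908 from edgeR). *Cpt1b*, the muscle-type form, had 0 counts in all 8 libraries, which allows up to 0.879 to 1.20 CPM per library (3 counts, counting error only). Of its exonic bases 2744 also belong to *Gm44502* on the same strand, which had 0 counts too, and the part of shared reads in this 0 was not tested. *Cpt2*, which turns the carnitine ester back into acyl-CoA, had 82.8, 54.8, 61.6 and 58.0 CPM in KIKO mice, against 38.4, 53.0, 68.9 and 49.6 CPM in WT mice. The wide spread within each group left its log2 fold change of 0.30 (SE 0.18) at an adjusted p = 0.442 from edgeR. *Slc25a20*, the carnitine-acylcarnitine translocase, had a log2 fold change of 0.15 (95% interval -0.15 to 0.46).

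The acyl-CoA dehydrogenases open each round. All 5 members placed in mitochondria alone had estimates above 0, from 0.02 to 0.71 on the log2 scale, where 49.0% of all tested genes lay above 0. *Acad11*, the member of this family placed in both organelles, had -0.07. Outside the member list, *Acad9* had 0.52 and *Acad12* -0.12, both named after their values were seen. *Acadvl*, for very-long chains, had 137, 137, 119.5 and 130.1 CPM in KIKO mice, against 91.0, 87.2, 139 and 108 CPM in WT mice. WT mouse 3 had the highest value of all 8, and the other 3 WT mice lay below every KIKO mouse. The log2 fold change was 0.30 (SE 0.15, adjusted p = 0.321 from edgeR, exact permutation p = 0.143). Without WT mouse 3 it was 0.46 (SE 0.12, adjusted p = 0.0424 from edgeR), the only member call in the 20 alternatives tried (adjusted p between 0.0424 and 0.617 over them). In that fit 5.81% of all tested genes passed, and 12 of the 29 members (10 higher, 2 lower) had an unadjusted p under 0.05, against 22.9% of all tested genes. The fit with all mice had 4 such members, and the other fits with 1 mouse left out had 3 to 6. *Acadvl* shares 1151 exonic bases with *Dvl2* on the other strand, which had a log2 fold change of 0.05.

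*Acads*, for short chains, had 314, 294, 256 and 291 CPM in KIKO mice, against 249, 245, 372 and 274 CPM in WT mice. Again WT mouse 3 was the highest of all 8, and the log2 fold change was 0.02 (95% interval -0.29 to 0.32). *Acadl* and *Acadm*, for long and medium chains, had log2 fold changes of 0.10 (95% interval -0.16 to 0.36) and 0.11 (-0.12 to 0.35). *Acad10*, a less studied member of the family, had 7.26, 10.4, 6.16 and 9.67 CPM in KIKO mice, against 4.76, 5.75, 4.35 and 5.36 CPM in WT mice. Every KIKO mouse stood above every WT mouse, as for 8.45% of all tested genes in either direction. Its log2 fold change of 0.71 (95% interval 0.15 to 1.28) was the largest estimate among members and the least precise (SE 0.26, adjusted p = 0.194 from edgeR, exact permutation p = 0.0286, the smallest that 4 against 4 mice allow).

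All 5 genes of the hydratase, hydroxyacyl-CoA dehydrogenase and thiolase steps had intervals inside 1.5-fold. *Hadh*, the short-chain hydroxyacyl-CoA dehydrogenase, had 291, 340.5, 313 and 362 CPM in KIKO mice, against 319, 304, 345 and 290.0 CPM in WT mice. The groups overlapped fully (log2 fold change 0.05, 95% interval -0.20 to 0.31). *Echs1*, the short-chain enoyl-CoA hydratase, had the smallest SE of all tested members (0.11), with values between 181 and 189.8 CPM in KIKO mice and between 177 and 196 CPM in WT mice. Its log2 fold change was 0.01 (95% interval -0.22 to 0.23). *Hadha* and *Hadhb*, the alpha and beta subunits of the trifunctional protein for long chains, had estimates of opposite sign, 0.21 (95% interval -0.11 to 0.52) and -0.16 (-0.46 to 0.14), and whether these differ was not tested. *Acaa2*, the mitochondrial thiolase, had a log2 fold change of 0.21 (-0.11 to 0.54).

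The auxiliary enzymes that handle double bonds gave similar values in both genotypes. *Decr1*, the mitochondrial dienoyl-CoA reductase, had 269.7, 268, 241 and 254 CPM in KIKO mice, against 235, 225, 249.7 and 249 CPM in WT mice. Its log2 fold change was 0.11 (95% interval -0.13 to 0.34), and that of *Eci1*, an enoyl-CoA isomerase, was 0.12 (-0.20 to 0.45). *Etfb*, the beta subunit of the electron transfer flavoprotein, had 713, 563, 442 and 583 CPM in KIKO mice, against 480.0, 409.7, 556 and 458 CPM in WT mice. KIKO mouse 1 was the highest and WT mouse 2 the lowest, and the log2 fold change of 0.27 (SE 0.15) had an adjusted p = 0.390 from edgeR. *Etfa*, the alpha subunit, had a log2 fold change of -0.01 (95% interval -0.37 to 0.36), and *Etfdh*, which passes the electrons to ubiquinone, one of 0.08 (-0.33 to 0.48). *Acot2*, a mitochondrial acyl-CoA thioesterase, had 148, 139.9, 121 and 132 CPM in KIKO mice, against 124, 199, 123 and 129 CPM in WT mice. Apart from WT mouse 2 all mice lay between 121 and 148 CPM (log2 fold change -0.09, 95% interval -0.42 to 0.24). Reads shared with its near-identical neighbour *Acot1*, which had at most 2.22 CPM, make the level of *Acot2* uncertain.

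Summed over the 20 mitochondrial members, levels were 3417, 3269, 2949 and 3270.1 CPM in KIKO mice, against 2872, 2766, 3258 and 2929.8 CPM in WT mice. The means were 3226 ± 198 CPM in KIKO and 2957 ± 212 CPM in WT mice (SD, n = 4 each), and the groups overlapped through WT mouse 3. Of the 19 tested mitochondrial members 15 had estimates above 0, with a median log2 fold change of 0.11. The median was 0.066 with an offset for transcript length and 0.035 with library totals alone, where the median of all tested genes was -0.08.

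The peroxisomal enzymes had the higher median estimate, 0.23 over 4 tested members, with 3 above 0. *Hsd17b4*, the bifunctional hydratase and dehydrogenase of very-long and branched chains, had 86.5, 116, 133 and 103 CPM in KIKO mice, against 87.2, 82.1, 94.7 and 85.7 CPM in WT mice. The 3 highest values were of KIKO mice, while KIKO mouse 1 lay among the WT mice. The log2 fold change was 0.33 (SE 0.14, adjusted p = 0.256 from edgeR, exact permutation p = 0.0857). *Acox3*, an acyl-CoA oxidase of branched chains, had 34.3, 39.2, 43.09 and 43.06 CPM in KIKO mice, against 32.6, 28.8, 36.8 and 34.2 CPM in WT mice. Only KIKO mouse 1 and WT mouse 3 crossed over (log2 fold change 0.27, SE 0.14, adjusted p = 0.353 from edgeR, exact permutation p = 0.0571). *Acaa1a*, a peroxisomal thiolase, had 116, 121, 130.2 and 114 CPM in KIKO mice, against 81.5, 95.1, 139 and 107 CPM in WT mice. WT mouse 3 was again the highest of all 8 (log2 fold change 0.19, 95% interval -0.13 to 0.50).

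*Acaa1a* has a near-identical copy, *Acaa1b*, with 247, 135, 137 and 169 CPM in KIKO mice, against 103, 88.7, 229 and 133 CPM in WT mice, so both levels are uncertain. *Acaa1a* also shares 290 exonic bases with *Myd88* on the other strand, which had a log2 fold change of 0.38 (95% interval 0.03 to 0.74). The part of this overlap in the *Acaa1a* estimate was not tested. *Decr2*, the peroxisomal dienoyl-CoA reductase, had a log2 fold change of -0.05 (95% interval -0.35 to 0.25). *Ehhadh*, the L-bifunctional enzyme, had 13, 2, 8 and 5 counts in KIKO mice, against 4, 0, 6 and 6 counts in WT mice, too few to be tested. Summed over the 5 peroxisomal members, levels were 275, 319.7, 352 and 297 CPM in KIKO mice, against 238, 246, 313 and 276 CPM in WT mice. The sums overlapped (311 ± 32.9 CPM in KIKO and 268 ± 33.9 CPM in WT mice, SD, n = 4 each).

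The 3 enzymes placed in both organelles all had estimates below 0, with a median log2 fold change of -0.07. *Crat*, the carnitine acetyltransferase that buffers acetyl-CoA, had 116, 141, 117 and 126 CPM in KIKO mice, against 156, 147, 129.9 and 148 CPM in WT mice. KIKO mouse 2 stood within the WT range and the other 3 KIKO mice below it. The log2 fold change was -0.22 (SE 0.12, adjusted p = 0.380 from edgeR, exact permutation p = 0.0571). *Crat* shares 59 exonic bases with *Dolpp1* on the other strand, which had a log2 fold change of -0.40 (95% interval -1.07 to 0.27). *Eci2*, an enoyl-CoA isomerase, and *Acad11*, an acyl-CoA dehydrogenase, had log2 fold changes of -0.03 (95% interval -0.32 to 0.27) and -0.07 (-0.45 to 0.31).

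The long-chain acyl-CoA synthetases activate fatty acids for oxidation and for esterification alike, and among members they held the smallest p values. *Acsl1*, the main synthetase of adipocytes (ENSMUSG00000018796, chromosome 8 of GRCm38 from 46471037 to 46536051), had 782, 1144, 645 and 838 CPM in KIKO mice, against 1065, 1121, 1342 and 1281 CPM in WT mice. KIKO mice 1, 3 and 4 lay below every WT mouse and KIKO mouse 2 within the WT range. The log2 fold change was -0.50 (SE 0.16, 95% interval -0.85 to -0.15), with an unadjusted p = 0.00824 and an adjusted p = 0.157 from edgeR and an exact permutation p = 0.0857. It ranged between -0.67 and -0.38 over the 20 alternatives, with adjusted p between 0.0659 and 0.347. *Acsl5*, which occurs on mitochondria and endoplasmic reticulum (ENSMUSG00000024981, chromosome 19 from 55251938 to 55297720), had 40.3, 42.8, 41.1 and 35.1 CPM in KIKO mice, against 30.4, 32.1, 32.5 and 25.1 CPM in WT mice. The groups did not overlap, and the log2 fold change was 0.40 (SE 0.14, adjusted p = 0.170 from edgeR, exact permutation p = 0.0286).

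*Acsl5* shares 404 exonic bases with *Zdhhc6* on the other strand, whose log2 fold change was 0.03. *Acsl4*, which prefers arachidonic acid, had a log2 fold change of 0.25 (95% interval -0.08 to 0.57). Because *Acsl1* was the most abundant of the 3, their summed level followed it, at 847, 1209, 709 and 900.1 CPM in KIKO mice, against 1115, 1173, 1398 and 1325 CPM in WT mice.

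**Figure D3:**
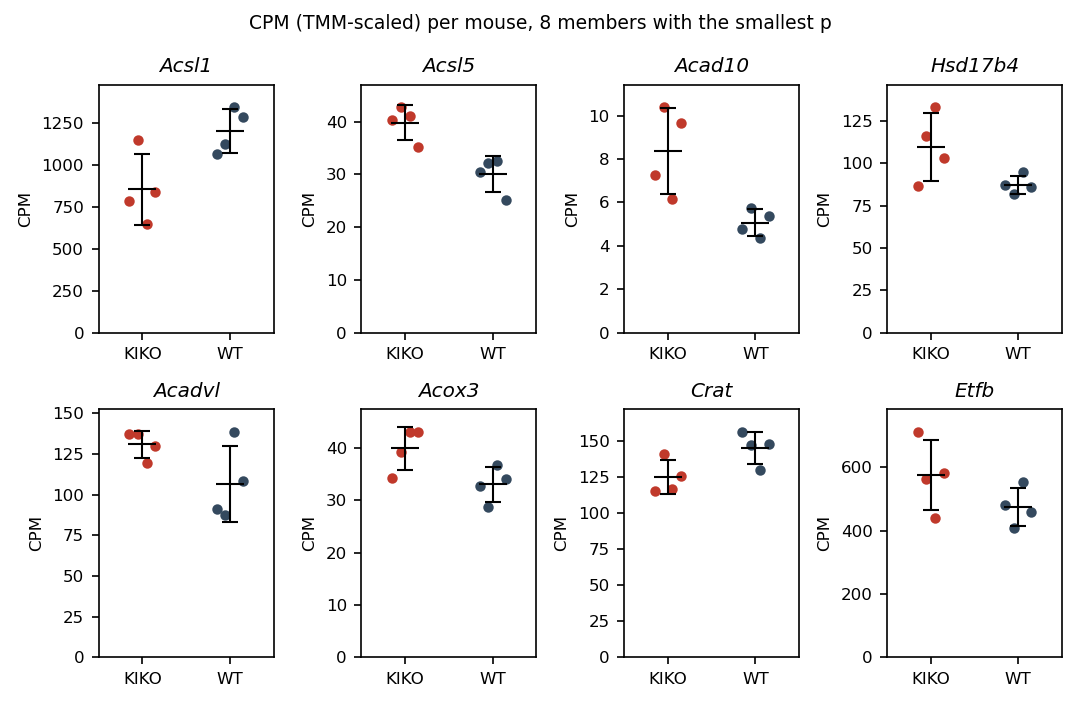
CPM in each mouse of the 8 members with the smallest p (points, mice; bars, mean and SD, n = 4 each; KIKO left, WT right; axes start at 0). *Acsl5* and *Acad10* separate the genotypes, *Acsl1* separates them except for KIKO mouse 2, and in *Acadvl* WT mouse 3 stands at the level of the KIKO mice.

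Mice differed in which members they had high, beyond genotype. WT mouse 3 was the highest WT mouse for 15 of the 29 tested members, beside 3 to 6 for the other WT mice. KIKO mouse 1 was the highest KIKO mouse for 10, close to KIKO mouse 3 with 9 and KIKO mouse 2 with 7. For 7 members (*Cpt2*, *Acadvl*, *Acads*, *Hadha*, *Acaa2*, *Decr1* and *Etfb*) WT mouse 3 and KIKO mouse 1 were both the highest of their groups. How often this held over all tested genes was not counted. WT mouse 3 also stood with the KIKO mice in 2 measures over the whole library. Its mitochondrially encoded share was 10.7%, beside 9.93 to 10.6% in KIKO mice and 6.91 to 9.38% in the other WT mice. Spearman's rho of each gene's deviation with transcript length was -0.10 in WT mouse 3, beside -0.20 to -0.07 in KIKO mice and 0.10 to 0.25 in the other WT mice. Over all tested genes the log2 fold change also ran with transcript length (rho -0.26 over 11078 genes), whereas over the 29 members it did not (rho 0.04); these are descriptions across genes. The part of these library measures in the members' values was not tested.

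**Figure D4:**
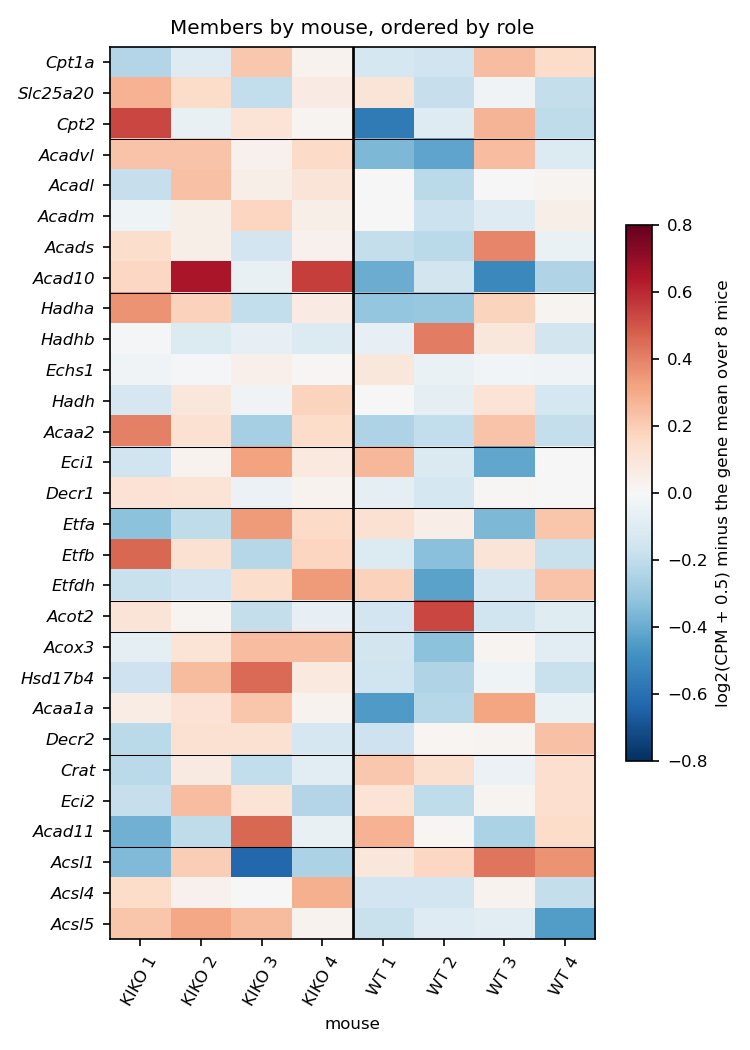
Deviation of each tested member from its mean over the 8 mice, as log2(CPM + 0.5), in KIKO mice 1 to 4 (left) and WT mice 1 to 4 (right), with members ordered by role. *Cpt2*, *Hadha*, *Acaa2* and *Etfb* share high values in KIKO mouse 1 and, more weakly, WT mouse 3, and no role group separates the genotypes in every row.

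Other genes of the pathway outside the list gave no call in edgeR either. The list of other mitochondrial genes also held genes whose proteins lie elsewhere, such as *Acsl3*. Of its 20 tested genes 0 passed and 2, both with higher values in KIKO mice, had an unadjusted p under 0.05 (against 16.2% of all tested genes). Of the 20, 12 lay above 0 (against 49.0%) and the median log2 fold change was 0.08. The smallest p values there belonged to *Mcee* (0.34, 95% interval 0.04 to 0.65), for odd-chain products, to *Hsd17b10* (0.35, 0.02 to 0.68), for branched chains, and to *Acsl3* (0.29, -0.04 to 0.61), a synthetase of lipid droplets. Of 22 tested other peroxisomal genes 0 passed and 2, both higher, had an unadjusted p under 0.05, 2 of 22 being below the share of all tested genes, while 16 lay above 0 and the median was 0.11.

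The peroxisomal thiolase and sterol carrier gene *Scp2* came nearest to the threshold, with 149, 173, 156 and 160.2 CPM in KIKO mice, against 102, 90.6, 118 and 124 CPM in WT mice. The groups did not overlap. Its log2 fold change was 0.55 (SE 0.12, adjusted p = 0.0623 from edgeR), and it passed with no filter on low counts, in DESeq2 and without WT mouse 3. *Pex14*, a gene of peroxisomal protein import named after its values were seen, passed only without WT mouse 3 (adjusted p = 0.0403 from edgeR, between 0.0403 and 0.702 over the alternatives). *Pecr*, a peroxisomal trans-enoyl-CoA reductase, had a log2 fold change of 0.62 (95% interval 0.11 to 1.14), with KIKO mouse 1 at 94.4 CPM, and *Nudt19*, which cleaves coenzyme A, one of 0.32 (-0.06 to 0.70).

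Regulators of the pathway gave no call either: of 16 tested 0 passed in edgeR and 0 had an unadjusted p under 0.05. The shares of all tested genes were 0.677% and 16.2%. Of the 16, 8 lay above 0 and 8 below, where 49.0% of all tested genes lay above 0. The smallest p values belonged to the lipase gene *Pnpla2* (log2 fold change 0.27, 95% interval -0.08 to 0.63), the deacetylase gene *Sirt1* (-0.36, -0.93 to 0.20) and the AMPK subunit gene *Prkaa2* (0.37, -0.32 to 1.06). Of 14 tested PPAR target genes outside the pathway 0 passed. At an unadjusted p under 0.05 stood 1 with higher and 3 with lower values in KIKO mice, against 16.2% of all tested genes. *Txnip*, which encodes an inhibitor of thioredoxin and of glucose uptake, had 268, 554, 544 and 491 CPM in KIKO mice, against 873, 749, 549 and 883 CPM in WT mice. WT mouse 3 lay within the KIKO range (log2 fold change -0.72, SE 0.21, adjusted p = 0.110 from edgeR), and *Txnip* passed with no filter on low counts, in DESeq2 and without WT mouse 3.

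*Cidea*, a lipid droplet gene of brown, beige and white fat, had 117, 14.0, 11.7 and 45.4 CPM in KIKO mice, against 9.51, 12.7, 18.4 and 12.7 CPM in WT mice. KIKO mice 1 and 4 stood above the rest, and KIKO mice 2 and 3 lay within the WT range (log2 fold change 1.82, 95% interval 0.65 to 3.0, adjusted p = 0.122 from edgeR), and the gene passed with no filter on low counts. The fatty acid transporter gene *Cd36* had 1281, 1362, 1403 and 1305 CPM in KIKO mice, against 1823, 1507, 1571 and 1573 CPM in WT mice. The groups did not overlap, with a log2 fold change of -0.27 (95% interval -0.54 to -0.01, adjusted p = 0.279 from edgeR).

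**Figure D5:**
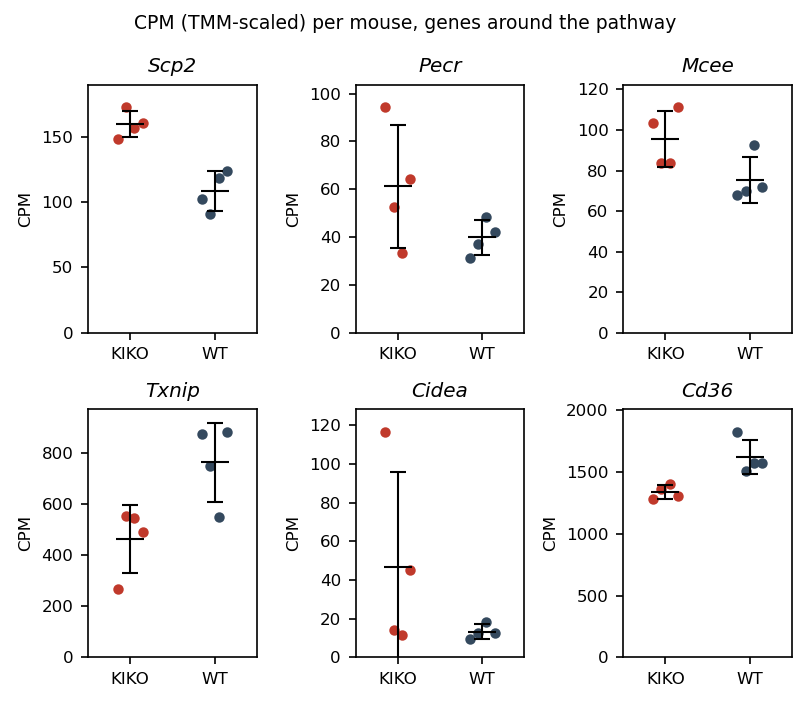
CPM in each mouse of genes around the pathway (points, mice; bars, mean and SD, n = 4 each; KIKO left, WT right; axes start at 0). *Scp2* and *Cd36* separate the genotypes, *Txnip* does so except for WT mouse 3, and the *Cidea* mean of KIKO mice rests on mice 1 and 4.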

How the data were processed

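Visceral white adipose tissue RNA of 4 KIKO and 4 WT mice was analysed from 2 tables that the authors deposited. The main one holds raw counts per gene. The other holds the authors' log2 values, in which every count was first scaled by the library's size factor and raised by 1; it served as an alternative only. By the labels and methods, reads passed through Trimmomatic, HISAT2 (GRCm38) and StringTie, and the annotation release was not given in the sources used here. Library kit and sequencer differ between the methods (TruSeq stranded, NextSeq) and the labels (NEGEDIA Digital mRNA-seq, NovaSeq), so whether counts came from whole transcripts or from their 3′ ends was not settled.

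Counts were tested with edgeR 4.0.16 (R 4.3.3; filterByExpr, TMM, quasi-likelihood F test on genotype, Benjamini-Hochberg over 11080 genes, passed under 0.05). Exact permutation tests were two-sided over 70 assignments of the mice, on log2(CPM + 0.5). Positions, lengths (main transcript) and exon overlaps came from GENCODE M21. Medians and counts over lists are over tested genes. Alternatives were other scalings, other filters, DESeq2 1.42.0, limma 3.58.1 (voom, trend with pseudocounts of 1 and 8, and the authors' values), the replicate number as a block, an offset for transcript length, and each mouse left out. The edgeR fit and the length offset were tested on simulated data, and the other steps were not. No within-group pair of libraries was a duplicate.

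The members and lists were chosen with earlier results of these data known. Every member is named. Values per mouse are given for the 8 members with the smallest p, for the most abundant member of each role group by CPM, and for *Cpt1a* and *Cpt1b*. In the other lists the genes with the 3 smallest p values are named, with *Acad9*, *Acad12*, *Acaa1b*, *Acot1* and *Pex14* in addition. The targeted gene is not reported here.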

Additional observations from a re-analysis of the deposited data

Results flagged for a closer look

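In 4 of the 58 groups of 4 mice examined (29 members, both genotypes) 1 mouse stood far from the other 3, by a criterion that chance alone meets in about 1 group in 20. All 4 were WT mice. *Acadl* had 188 CPM in WT mouse 2, beside 218 to 222 CPM in the other WT mice. *Acot2* had 199 CPM in WT mouse 2, beside 123 to 129 CPM. *Acaa2* had 245 CPM in WT mouse 3, beside 176 to 183 CPM, and *Acsl4* had 22.8 CPM in WT mouse 3, beside 19.4 to 19.99 CPM.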

How the results depend on the processing

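No member passed in 19 of the 20 alternatives, and 1 passed (*Acadvl*) without WT replicate 3, so the count of members ranged from 0 to 1 when mice were left out in turn. *Acad10* had no adjusted p in DESeq2 or with a minimum count of 30, which each covered 28 members. The count of all genes was 75 in the fit reported (31 higher and 44 lower in KIKO mice; 18 and 49 with library totals alone) and 382 with no filter on low counts, 260 in DESeq2, 40 in limma-voom, 45 in limma-trend on the authors' log2 values, 33 with the length offset and 0 with the replicate block, where 1427 genes had an unadjusted p under 0.05. Leaving out single mice gave 0 to 654. Same-numbered mice did not deviate together (correlations of -0.15, -0.13, -0.11 and 0.03 for numbers 1 to 4), so the numbers were not taken to pair the mice. The median of the mitochondrial members was 0.035 with library totals alone.

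Members with estimates near 0 changed sign. With library totals alone, which lower the median of all tested genes to -0.08 against -0.01 in the fit reported, *Acads* had -0.047, *Echs1* -0.066 and *Hadh* -0.014, a shift shared by all genes. With the length offset *Acads* had -0.019, *Echs1* -0.055 and *Cpt1a* 0.0051, and *Etfa* had 0.0021 with RLE factors and 0.0030 in DESeq2. With mice left out in turn, *Acads* ranged over -0.049 to 0.174, *Echs1* -0.013 to 0.038, *Cpt1a* -0.126 to 0.036, *Etfa* -0.128 to 0.096, *Etfdh* -0.042 to 0.171, *Acot2* -0.158 to 0.109, *Decr2* -0.115 to 0.022, *Eci2* -0.117 to 0.048 and *Acad11* -0.268 to 0.037. The cause of the other sign changes was not tested. Precision was limited by 4 mice per genotype: the median SE of the 29 tested members was 0.15 on the log2 scale.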
